A study of Mus musculus with 17 samples.

Results

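The nuclear-encoded subunits of the mitochondrial respiratory chain were followed through mouse prostate tissue and prostate tumours. Members were the genes whose symbols begin with Nduf, Uqcr, Sdh or Cox in the patterns that name subunits of complexes I to IV, taken where all 17 files of the series list the gene and leaving out model and pseudogene names. There were 63 of them, among the 13905 genes kept in the genotype files and the 39179 kept in the files of an inducible model. They comprised 7 core and 28 accessory subunits of complex I, 4 subunits of complex II, 8 of complex III, 10 of complex IV, and 6 tissue isoforms or relatives. The choice used names, not values.

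RNA from frozen prostate tissue or prostate tumour of C57BL/6 mice was sequenced. The Ctnnb1 group (n = 3, about 12 months old) carried 1 Ctnnb1 allele lacking exon 3, an allele whose beta-catenin escapes degradation, and the labels do not name the driver of the recombination. The combined group (n = 3, 6 to 8 months) carried the same allele together with another engineered change. The ADT group (n = 3) and the mock group (n = 2), all about 15 months old, carried the combined genotype, induced through Nkx3-1CreERT2, a tamoxifen-dependent Cre expressed from a prostate luminal gene, and had received androgen deprivation or mock treatment. Wild-type prostate (n = 3, 12 months) is labelled as tissue and all other groups as tumour. The combined tumours were thus younger than the prostates they are set against, so age and genotype cannot be told apart there. The labels do not say that replicates came from separate animals, so p-values measure the spread between these samples, which may be technical.

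Complex I takes electrons from NADH and complex II, which is also the succinate dehydrogenase of the citrate cycle, takes them from succinate. Complex III passes them from ubiquinol to cytochrome c, and complex IV passes them to oxygen. Complexes I, III and IV pump protons that drive ATP synthase, and each mixes nuclear-encoded with mitochondrially encoded subunits. The secretory epithelium of the prostate is known for exporting citrate that other tissues would oxidise.

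Values are the deposited scaled counts, and changes are differences of log2(value + 1) taken as Ctnnb1 or combined minus wild type and as ADT minus mock. Summed values per library lay between 32455483 and 47248750 in the genotype files and between 30591734 and 32791101 in the inducible files, all after scaling by the authors, so the sequencing depth behind them is unknown. The 10 highest genes took 5.94% to 6.76% of the kept value in Ctnnb1 tumours and 5.32% to 6.28% in combined tumours, against 24.9% to 28.2% in wild type. The members' calls therefore depend on the scale. If all libraries were set to equal totals, the median of all genes moved to a log2 change of 0.49 in Ctnnb1 over wild type and 0.50 in combined over wild type, against 0.00 and -0.01 as deposited. The members' share of the kept value was 0.518%, 0.560% and 0.519% in Ctnnb1 tumours and 0.498%, 0.460% and 0.529% in combined tumours, against 0.504%, 0.483% and 0.426% in wild type. All Ctnnb1 shares lay above the wild-type shares, and the combined shares overlapped with them.

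On the deposited scale most of the respiratory chain fell in the tumours. In Ctnnb1 tumours 40 of 63 members fell and 1, Ndufa4l2, rose (limma, adjusted p under 0.05), where 29.6% of all genes fell and 28.9% rose. In combined tumours 43 fell and again Ndufa4l2 alone rose, where 29.5% of all genes fell and 28.3% rose. The median log2 change of the members was -0.30 in Ctnnb1 and -0.40 in combined tumours. Both comparisons use the same 3 wild-type libraries. In bulk RNA, fewer cells of a type and less RNA per cell cannot be told apart, and smooth muscle genes were lower by far: 10 of 10 markers fell in each comparison, with sums of 4928, 2443 and 4138 in Ctnnb1 and 18325, 23316 and 7823 in combined tumours, against 162884, 174448 and 206259 in wild type. Luminal epithelial markers summed to 129674, 117057 and 129454 in Ctnnb1 and to 99512, 94671 and 121688 in combined tumours, against 117570, 130561 and 118856 in wild type, and 1 of 8 rose and 2 fell in Ctnnb1 while 2 rose and 3 fell in combined tumours. Macrophage markers summed to 9399, 7832 and 10208 in Ctnnb1 and to 30483, 27461 and 8108 in combined tumours, against 3341, 3550 and 4093 in wild type, and 8 of 10 rose in Ctnnb1 and 9 of 10 in combined tumours. Skeletal muscle markers, of which 11 of 12 fell in each comparison, summed to 359, 155 and 12968 in Ctnnb1 and to 1655, 343 and 353 in combined tumours. In wild-type libraries 1, 2 and 3 they summed to 198417, 56376 and 11047. The members' median against the wild-type mean had the same order there (0.11, -0.01 and -0.09). The part of cell makeup in the members' values was not tested. All 3 libraries lay below all wild-type libraries for 41 members in Ctnnb1 and for 46 in combined tumours, against 35.6% and 34.0% of all genes, and above them for 2 members each, against 35.9% and 32.1%. Together 43 members in Ctnnb1 and 48 in combined tumours did not overlap with wild type, against 71.5% and 66.1% of all genes. At equal totals 27 members rose and 6 fell in Ctnnb1 tumours, where 56.1% of all genes rose and 15.0% fell. In combined tumours 20 then rose and 9 fell, where 57.3% rose and 12.6% fell. Set against the median of all genes, the members' median was -0.30 in Ctnnb1 tumours and -0.39 in combined tumours. These differences are the same on either scale by construction, since rescaling moves all genes of a library by nearly the same amount. Without wild-type library 1 the Ctnnb1 count of fallen members was 23, without wild-type library 2 it was 24, and without Ctnnb1 library 15 it was 26. In combined tumours it lay between 38 and 45 on leaving out any single library.

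**Figure D1:**
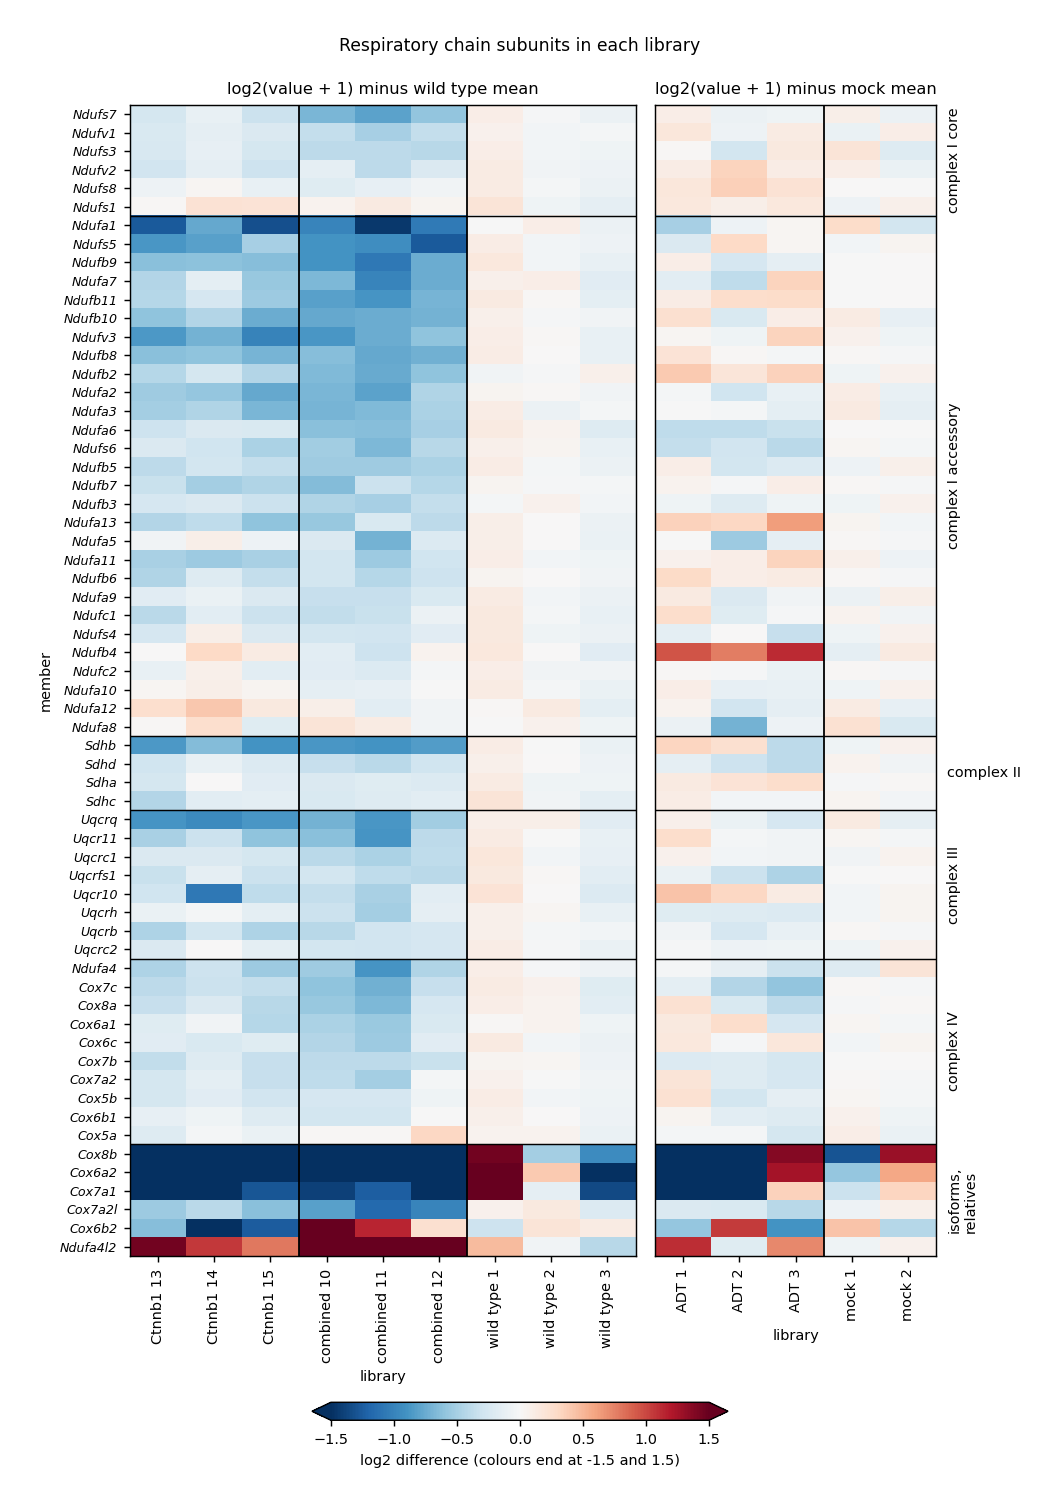
Log2(value + 1) of 62 members (rows, by complex) in each library (columns), minus the wild-type mean in the left block and minus the mock mean in the right block; blue is lower and red higher, and colours end at -1.5 and 1.5. Most accessory subunits of complex I are blue in all 6 tumour libraries of the left block, Ndufs1 is pale, and the muscle isoforms differ between wild-type libraries themselves.

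Complex I joins a core that carries the flavin and iron-sulfur clusters to a shell of accessory subunits. The accessory subunits fell by more than the core in both comparisons as medians, without a test of that difference. Every core gene has at least 636 coding bases, and most accessory genes are shorter. Shorter genes had lower changes among all genes too, and the part of length in this difference was not tested. Of 28 accessory genes, 19 fell in Ctnnb1 tumours (median -0.36) and 21 in combined tumours (median -0.49), and none rose. Of the 7 core genes, 4 fell in Ctnnb1 tumours (median -0.19) and 4 in combined tumours (median -0.24). Across all genes 29.6% fell in Ctnnb1 and 29.5% in combined tumours, and 28.9% and 28.3% rose. None of the 4 core calls in Ctnnb1 tumours held on leaving out every library in turn, against 3 of the 4 in combined tumours.

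Ndufa1, a small membrane-anchored accessory subunit encoded at chrX:37187588-37191163 (GRCm38), had the lowest change of the complex. Its values were 1779, 2500 and 1711 in Ctnnb1 tumours and 2135, 1563 and 2047 in combined tumours, against 4245, 4549 and 3998 in wild type. All 6 tumour libraries lay below all wild-type libraries. The log2 change was -1.11 (SE 0.17, limma adjusted p = 0.000721) in Ctnnb1 and -1.17 (SE 0.17, adjusted p = 0.000569) in combined tumours, and the call held at equal totals (-0.62 and -0.65). Counted per kilobase of transcript, Ndufa1 was among the 5 highest members in wild type, at 10177 per kilobase.

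Ndufs5 and Ndufv3, both chosen after their values were seen, followed it in Ctnnb1 tumours, while in combined tumours Ndufs5 came next and Ndufb9 (-0.90) and others lay below Ndufv3. Ndufs5, an accessory subunit of the membrane arm, averaged 730 ± 105 in Ctnnb1 and 594 ± 80.6 in combined tumours, against 1206 ± 84.1 in wild type (SD, n = 3 each). Its log2 changes were -0.73 and -1.03. Ndufv3, which sits beside the NADH-binding flavoprotein, averaged 1470 ± 148 in Ctnnb1 and 1595 ± 144 in combined tumours, against 2664 ± 191 in wild type, with log2 changes of -0.86 and -0.74. Neither gene's tumour libraries overlapped with wild type.

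Among core subunits the values were closer. Ndufs1, the largest iron-sulfur protein of the complex, had 2629, 3004 and 2988 in Ctnnb1 tumours and 2694, 2845 and 2670 in combined tumours, against 2965, 2476 and 2358 in wild type. Its groups overlapped, and its changes of 0.15 and 0.08 did not pass the test (adjusted p = 0.210 and 0.494). Ndufs7, which holds the last iron-sulfur cluster before ubiquinone, fell by 0.24 in Ctnnb1 tumours and by 0.69 in combined tumours on the log2 scale. Its values were 1672, 1859 and 1602 in Ctnnb1 and 1245, 1157 and 1332 in combined tumours, against 2163, 1985 and 1894 in wild type, and neither group overlapped with wild type. The Ctnnb1 call was lost without wild-type library 1 or 2 or Ctnnb1 library 13 or 15, and at equal totals Ndufs7 rose there (0.26). The highest change of complex I belonged to accessory subunit Ndufa12 in Ctnnb1 tumours (0.27, adjusted p = 0.0584) and to accessory subunit Ndufa8 in combined tumours (0.09, adjusted p = 0.518), and neither passed.

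Because 2 genes are read in the same library, their ratio does not depend on scaling. Ndufa1 stood at 67.7%, 83.2% and 57.3% of the Ndufs1 value in Ctnnb1 tumours and at 79.3%, 54.9% and 76.7% in combined tumours, against 143%, 184% and 170% in wild type. The pair was chosen after its values were seen and its levels are not corrected for length, so this is a description. All 6 tumour ratios lie below the 3 wild-type ratios.

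**Figure D2:**
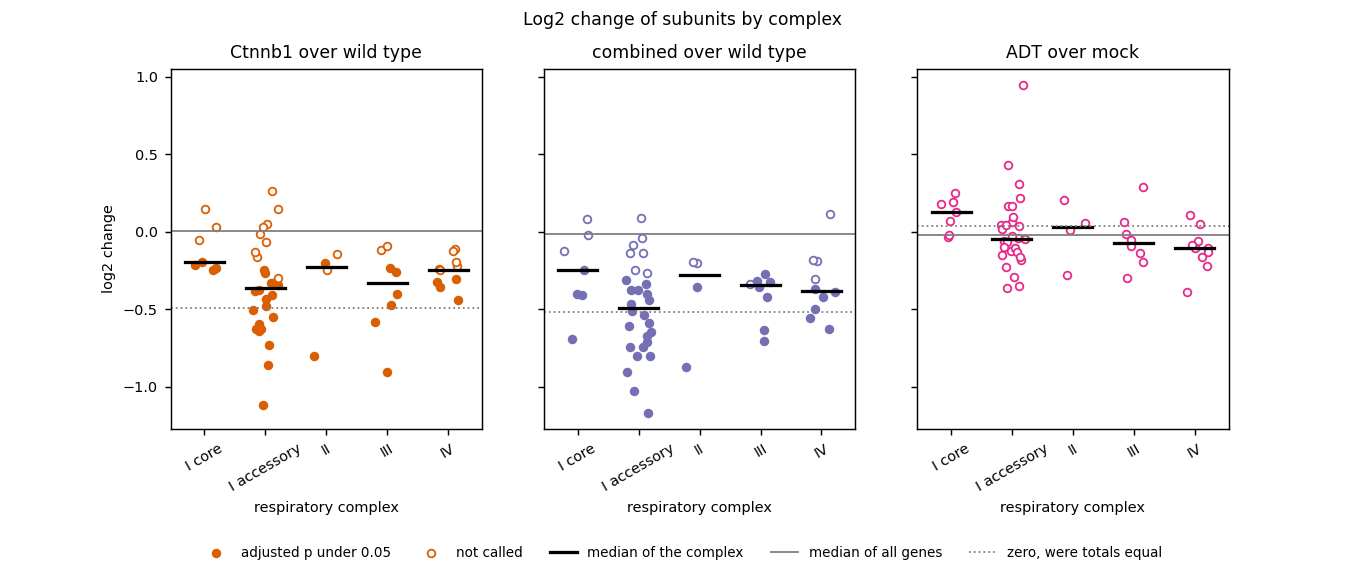
Log2 change of each subunit (vertical axis) by complex (horizontal axis) for Ctnnb1 over wild type, combined over wild type and ADT over mock; filled points have an adjusted p under 0.05, black bars are medians, the grey line is the median of all genes, and the dotted line is where 0 would lie had totals been equal. Medians of all 5 classes lie below the grey line in the first and second panels, and the points of the third panel are open.

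Complex II has 4 subunits, all encoded in the nucleus. The iron-sulfur subunit Sdhb (chr4:140961203-140979193, GRCm38) fell, while the change of the flavoprotein Sdha, which oxidises succinate, was smaller and missed the threshold. Sdhb had 1854, 2157 and 1815 in Ctnnb1 tumours and 1845, 1818 and 1886 in combined tumours, against 3644, 3354 and 3159 in wild type, with no overlap. The log2 changes were -0.80 (SE 0.08, limma adjusted p = 0.000127) and -0.87 (SE 0.08, adjusted p = 8.3e-05), and Sdhb was also called lower at equal totals (-0.31 and -0.35). Sdha had 7173, 8627 and 7631 in Ctnnb1 tumours and 7369, 7599 and 7462 in combined tumours, against 9388, 8216 and 8218 in wild type. Its changes were -0.14 (adjusted p = 0.183) and -0.20 (adjusted p = 0.0731), and the Ctnnb1 libraries overlapped with wild type while all 3 combined libraries lay below it. Of the membrane anchors, Sdhd fell in both (-0.20 and -0.35), a Ctnnb1 call lost without wild-type library 1 or 2 or Ctnnb1 library 13 or 15, and Sdhc did not pass (-0.24 and -0.19, adjusted p = 0.0784 and 0.155).

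Within a library Sdhb stood at 25.8%, 25% and 23.8% of Sdha in Ctnnb1 tumours and at 25%, 23.9% and 25.3% in combined tumours, against 38.8%, 40.8% and 38.4% in wild type. This ratio, also chosen after its values were seen, varied within each group by less than the gap between tumours and wild type. In the inducible files, scaled apart and compared only among themselves, Sdhb was at 27.6%, 25% and 15.4% of Sdha in ADT tumours, against 23.6% and 25.2% in mock tumours, and these overlap.

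**Figure D3:**
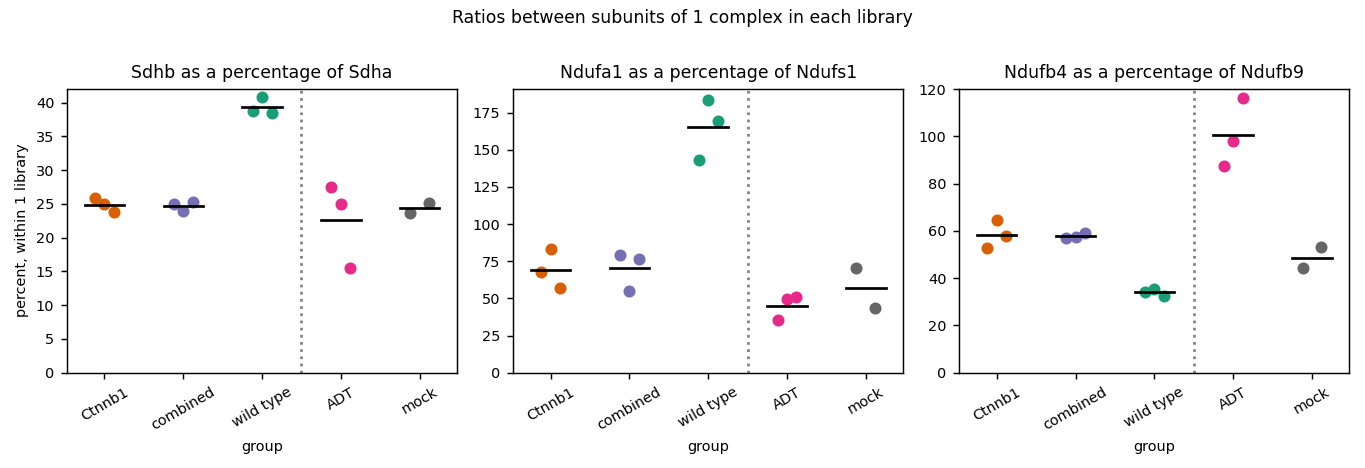
Ratio of a pair of subunits of 1 complex in each library, as a percentage (vertical axis from 0), by group; points are libraries, bars are group means, and the dotted line separates files that were scaled apart. Sdhb over Sdha lies between 23.8% and 25.8% in the Ctnnb1 and combined tumours and between 38.4% and 40.8% in wild type.

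The promoters of this pair are shown because the ratio of the genes differed between tumours and wild type. Each sequence covers 250 bases before and 30 after the RefSeq start (GRCm38.p6), and capitals mark matches on either strand to NRF1 (GCGCATGC), ETS factors such as GABP (CCGGAAG), YY1 (AAGATGGC), ERR (TCAAGGTCA), an E-box (CAGCTG) or a TATA box (TATAAA). Sdhb is at chr4:140961021-140961300 on the plus strand and Sdha at chr13:74350211-74350490 on the minus strand.
Sdhb: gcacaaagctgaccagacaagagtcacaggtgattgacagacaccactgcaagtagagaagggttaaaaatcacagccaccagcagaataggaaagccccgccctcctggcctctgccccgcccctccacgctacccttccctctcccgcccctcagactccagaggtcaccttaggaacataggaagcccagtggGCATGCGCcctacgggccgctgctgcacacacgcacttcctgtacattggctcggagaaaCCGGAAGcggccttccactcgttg
Sdha: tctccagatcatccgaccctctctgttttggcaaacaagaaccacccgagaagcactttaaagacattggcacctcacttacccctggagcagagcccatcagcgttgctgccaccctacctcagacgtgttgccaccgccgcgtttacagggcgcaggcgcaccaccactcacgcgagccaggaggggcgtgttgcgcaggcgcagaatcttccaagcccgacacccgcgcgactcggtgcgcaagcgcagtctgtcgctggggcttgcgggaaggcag
The Sdhb window holds 1 NRF1 and 1 ETS match, and the Sdha window holds 0 matches. A match is a string of letters, not a measured site, and no factor binding was measured.

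All 8 complex III genes lay below 0 in both comparisons. In Ctnnb1 tumours 6 fell (median -0.33), and in combined tumours 7 fell (median -0.35), against 29.6% and 29.5% of all genes. Uqcrq, a small subunit named for binding ubiquinone, had the lowest change. It had 1445, 1372 and 1459 in Ctnnb1 tumours and 1627, 1462 and 1854 in combined tumours, against 2836, 2828 and 2370 in wild type, with no overlap. The log2 changes were -0.90 (SE 0.10, limma adjusted p = 0.000214) and -0.70 (SE 0.10, adjusted p = 0.00071), and at equal totals the call held in Ctnnb1 tumours only (-0.41, and -0.19 in combined). The Rieske iron-sulfur protein Uqcrfs1 fell in both (-0.26 and -0.35), with Ctnnb1 libraries of 3032, 3483 and 3059 that overlap with 4221, 3862 and 3407 in wild type. Its Ctnnb1 call was lost without wild-type library 1 or 2 or Ctnnb1 library 13 or 15. The hinge protein Uqcrh (-0.09) and the core protein Uqcrc2 (-0.12) did not pass in Ctnnb1 tumours, and both fell in combined tumours (-0.33 and -0.27). The combined call of Uqcrh was lost without wild-type library 1 or 2 or combined library 11, and that of Uqcrc2 without wild-type library 1. Uqcr10 had 1633, 960 and 1545 in Ctnnb1 tumours, so library 14 was well below the other two, and fell by 0.58 on the log2 scale, a call lost without wild-type library 1 or 2 or without Ctnnb1 library 14 itself. It is also 1 of 10 members whose values the files repeat under a further gene number, and many small subunits have near-identical processed copies, so reads shared with such copies make their values uncertain.

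Complex IV holds the copper and heme centres where oxygen is reduced. In Ctnnb1 tumours 5 of 10 genes fell (median -0.24), and in combined tumours 6 fell (median -0.38), against 29.6% and 29.5% of all genes. At equal totals none was called lower, against 15.0% of all genes in Ctnnb1 and 12.6% in combined tumours. On that scale 5 were called higher in Ctnnb1 and 3 in combined tumours, against 56.1% and 57.3% of all genes. Ndufa4, first named for complex I and now placed in complex IV, had the lowest change in both. It had 3568, 3957 and 3383 in Ctnnb1 tumours and 3393, 2654 and 3612 in combined tumours, against 5251, 4853 and 4671 in wild type, with no overlap. The log2 changes were -0.44 (SE 0.12, limma adjusted p = 0.0131) and -0.62 (SE 0.12, adjusted p = 0.00246). Cox7c, Cox8a and Cox7b, all small subunits around the catalytic core, fell in both comparisons. At equal totals Cox7b was instead called higher in Ctnnb1 tumours (0.19, limma adjusted p = 0.0432). In Ctnnb1 tumours the Cox7c call was lost without wild-type library 1 or 2 or Ctnnb1 library 13 or 15, and the Cox8a call without any single library except wild-type library 3. Cox8a had 4907, 5368 and 4667 in Ctnnb1 tumours and 4196, 3896 and 5235 in combined tumours, against 6680, 6449 and 5570 in wild type. Cox6a1 and Cox6c fell in combined tumours (-0.42 and -0.39) and did not pass in Ctnnb1 tumours (-0.22 and -0.19). Cox5a, Cox6b1 and Cox7a2 passed in neither, and Cox5a had the highest change (-0.11 in Ctnnb1 and 0.11 in combined tumours). Cox4i1, the ubiquitous subunit IV that the naming pattern does not take, fell by 0.42 in Ctnnb1 and by 0.59 in combined tumours on the log2 scale.

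Cox8b and Cox6a2 had the widest changes of all members in both comparisons, and skeletal muscle genes fell beside them. Cox6a2, Cox7a1 and Cox8b replace Cox6a1, Cox7a2 and Cox8a in heart and skeletal muscle. Cox6a2 had 0, 2 and 55 in Ctnnb1 tumours and 5, 4 and 2 in combined tumours, against 819, 226 and 27 in wild type. The 12 skeletal muscle marker genes, among them actin Acta1, summed to 359, 155 and 12968 in Ctnnb1 tumours and to 1655, 343 and 353 in combined tumours, against 198417, 56376 and 11047 in wild type. Of the 6 tumour libraries of the genotype files, only Ctnnb1 library 15 had a Cox6a2 value over 5. It also had the highest muscle sum of those 6, and its Cox6a2 value exceeded that of wild-type library 3. Of those 12 markers 11 fell in each comparison, and 4, 4 and 0 of them were at 0 in the Ctnnb1 libraries, 0, 1 and 5 in the combined libraries and none in the wild-type libraries. The part of muscle tissue in these values was not tested.

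Cox8b had 0, 2 and 19 in Ctnnb1 tumours and 2, 17 and 0 in combined tumours, against 401, 103 and 76 in wild type, with no overlap. Among the combined libraries it was highest in library 11, whose muscle sum was the lowest of the 3. Its log2 changes were -5.24 (SE 1.37, limma adjusted p = 0.0112) and -5.29 (SE 1.37, adjusted p = 0.0107), and those of Cox6a2 were -4.97 (SE 1.60, adjusted p = 0.0272) and -5.27 (SE 1.60, adjusted p = 0.0215). The Cox6a2 call was lost on leaving out wild-type library 1 (-3.85, adjusted p = 0.0967 in Ctnnb1, and -4.15, adjusted p = 0.0785 in combined), and likewise without wild-type library 2, without Ctnnb1 library 13 or 14, and without combined library 12. Cox7a1 had 30, 30 and 64 in Ctnnb1 tumours and 59, 66 and 36 in combined tumours, against 444, 143 and 61 in wild type. It fell in Ctnnb1 tumours (-2.0, adjusted p = 0.0329), a call lost at equal totals (-1.51), and without wild-type library 1 (-1.25, adjusted p = 0.0878), wild-type library 2, or Ctnnb1 library 13 or 14, and it did not pass in combined tumours (-1.58, adjusted p = 0.0746). The muscle isoforms remained a small share even in wild type: Cox6a2 stood at 15.3%, 4.09% and 0.533% of Cox6a1 there. The 6 adipocyte markers listed summed to 1746, 3537 and 2537 in Ctnnb1 and 2322, 6998 and 2322 in combined tumours, against 3567, 1872 and 6085 in wild type. The 1 brown fat marker listed had 89, 117 and 31 in Ctnnb1 and 41, 41 and 28 in combined tumours, against 21, 23 and 176 in wild type. The part of fat in the isoform values was not tested.

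**Figure D4:**
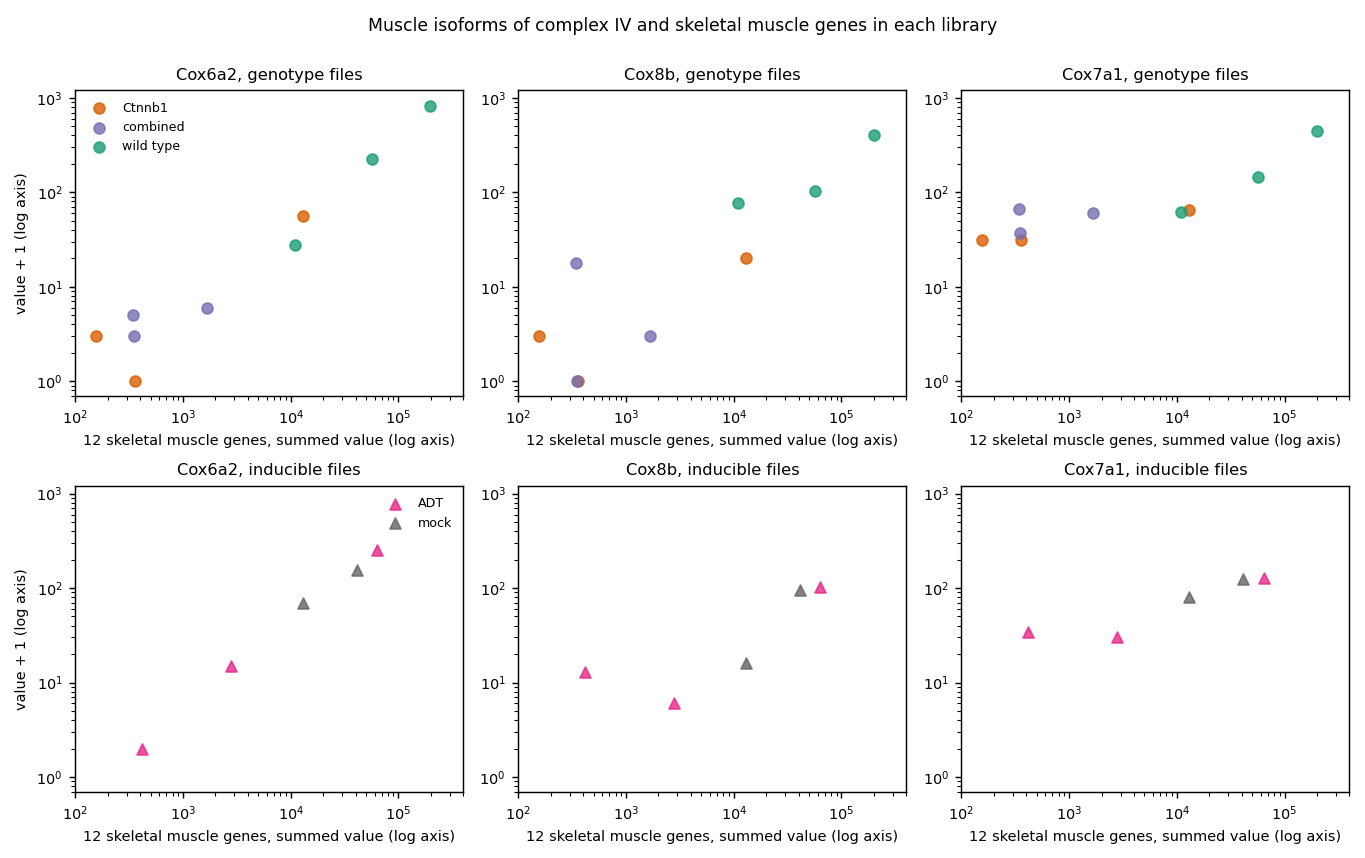
Value + 1 of Cox6a2, Cox8b and Cox7a1 (vertical, log axis) against the summed value of 12 skeletal muscle genes (horizontal, log axis) in each library, with the genotype files above and the inducible files below. Libraries with the highest muscle sums, wild type 1 (198417) and ADT 3 (63845), have the highest isoform values of their files.

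The promoters of the subunit VIII pair are shown because the muscle form Cox8b and the general form Cox8a differ in letters as well as in pattern. The windows and capitals are as for the Sdh pair, with Cox8b at chr7:140900417-140900696 and Cox8a at chr19:7217587-7217866, both on the minus strand.
Cox8b: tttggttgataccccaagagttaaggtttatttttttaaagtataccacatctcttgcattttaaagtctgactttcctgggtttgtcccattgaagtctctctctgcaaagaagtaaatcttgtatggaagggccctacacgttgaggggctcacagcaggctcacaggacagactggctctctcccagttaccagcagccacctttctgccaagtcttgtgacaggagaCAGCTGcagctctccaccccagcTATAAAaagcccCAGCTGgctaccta
Cox8a: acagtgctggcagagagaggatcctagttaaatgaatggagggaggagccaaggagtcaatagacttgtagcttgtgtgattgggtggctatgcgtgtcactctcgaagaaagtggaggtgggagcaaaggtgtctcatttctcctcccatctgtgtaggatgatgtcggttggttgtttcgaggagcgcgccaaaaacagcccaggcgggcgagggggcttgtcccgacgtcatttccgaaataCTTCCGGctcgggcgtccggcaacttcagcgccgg
The Cox8b window holds 2 E-box strings (CAGCTG) and 1 TATAAA string, the printed Cox8a window holds 1 ETS match, and G and C make up 47.5% and 55.4% of them. The TATAAA string and the later CAGCTG string lie within the 30 bases after the RefSeq start, not before it. The E-box and TATA strings were added to the search after these sequences had been read, and they occur in 18.3% and 15.7% of all RefSeq promoters.

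Ndufa4l2 was the single member that rose. It is a relative of Ndufa4 known to be induced by hypoxia and is also known from pericytes, the contractile cells of small vessels. It had 101, 77 and 64 in Ctnnb1 tumours and 211, 331 and 134 in combined tumours, against 51, 35 and 27 in wild type, with no overlap. The log2 changes were 1.10 (SE 0.38, limma adjusted p = 0.0366) and 2.50 (SE 0.38, adjusted p = 0.000822). The Ctnnb1 call was lost without wild-type library 2 or 3 (1.07 and 0.89), without Ctnnb1 library 13 or 14 (0.93 and 1.12), and with 3 more libraries in the fit (adjusted p = 0.0782). The 6 pericyte markers summed to 4241, 4242 and 4850 in Ctnnb1 tumours and to 10344, 15539 and 5550 in combined tumours, against 4698, 3029 and 3177 in wild type, and 1 rose and 1 fell in Ctnnb1 while 3 rose in combined tumours. The median log2 change of the 6 was -0.29 in Ctnnb1 and 0.76 in combined tumours. Rgs5, the 1 marker that rose in Ctnnb1 tumours, had 1857, 2114 and 2122 there and 4640, 6217 and 2570 in combined tumours. Wild type had 1502, 743 and 863, and Rgs5 rose by 1.04 and 2.09 on the log2 scale. The Ctnnb1 call of Rgs5 was lost without any 1 of 5 of the 6 libraries compared, wild-type library 1 being the exception. Combined library 11 was highest for Ndufa4l2, Rgs5 and the pericyte sum alike, and Rgs5 is itself part of that sum. Among the Ctnnb1 libraries the order differed: library 13 was highest for Ndufa4l2 and lowest for Rgs5 and the pericyte sum. The part of pericytes in the Ndufa4l2 values was not tested.

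Cox4i2, the alternative form of subunit IV known from lung and from hypoxic cells, is not taken by the naming pattern. It had 100, 43 and 63 in Ctnnb1 tumours and 75, 35 and 54 in combined tumours, against 20, 26 and 26 in wild type, with no overlap. It rose by 1.41 (limma adjusted p = 0.0171) and 1.10 (adjusted p = 0.0451) on the log2 scale. The Ctnnb1 call was lost without wild-type library 1 (1.28) or Ctnnb1 library 13 (1.10), and the combined call without any single wild-type library or without combined library 10 or 12 (0.84 to 1.16).

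Cox7a2l, a relative of Cox7a2, had 7722, 8510 and 7285 in Ctnnb1 tumours and 6445, 5013 and 5677 in combined tumours, against 11820, 12456 and 9787 in wild type. All 6 tumour libraries lay below wild type. It fell by 0.53 (SE 0.12, limma adjusted p = 0.00625) in Ctnnb1 and by 0.99 (SE 0.12, adjusted p = 0.000281) in combined tumours on the log2 scale, and at equal totals the call held in combined tumours only (-0.48, against -0.04 in Ctnnb1). Cox6b2, the testis form of Cox6b1, went opposite ways without passing. It had 31, 15 and 20 in Ctnnb1 tumours and 188, 109 and 58 in combined tumours, against 39, 56 and 53 in wild type. The changes were -1.17 (adjusted p = 0.0568) and 1.11 (adjusted p = 0.0698), and neither tumour group overlapped with wild type. The testis forms Cox7b2 and Cox8c are listed only in the inducible files, where Cox8c was at 0 throughout and Cox7b2 had 5, 1 and 0 in ADT and 0 and 0 in mock libraries.

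Assembly factors build the complexes without being part of them, and their counts stand beside 29.6% of all genes that fell in Ctnnb1 and 29.5% in combined tumours. Complex IV assembly factors had 6 of 21 lower and 1 higher in Ctnnb1 tumours and 9 of 21 lower in combined tumours. Surf1, which helps build the catalytic subunit, had 1205, 1241 and 1221 in Ctnnb1 and 910, 902 and 1060 in combined tumours, against 2168, 2203 and 2033 in wild type, with log2 changes of -0.80 and -1.16 (limma adjusted p = 9.86e-05 and 2.11e-05). Coa3, which stabilises the newly made catalytic subunit, had 857, 848 and 755 in Ctnnb1 and 802, 860 and 873 in combined tumours, against 1693, 1590 and 1597 in wild type, with changes of -0.99 and -0.94. Both genes' tumour libraries lay well below wild type.

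Complex I assembly factors had 6 of 17 lower and 2 higher in Ctnnb1 tumours and 9 lower and 1 higher in combined tumours. Ndufaf8 had the smallest p among them in both, with changes of -0.85 and -1.02. Complex III assembly factors had 3 of 6 lower and 1 higher in each comparison, with Uqcc3 at -0.25 in Ctnnb1 and -0.89 in combined tumours, the Ctnnb1 call being lost without any single library. Complex II assembly factors had 0 of 4 called in Ctnnb1 and 1 lower in combined tumours. Of the nuclear subunits of ATP synthase and its inhibitor, 5 of 16 fell in Ctnnb1 and 8 in combined tumours, and none rose. The shares of all genes that fell were 29.6% and 29.5%. Atp5g1, a gene of the rotor ring, fell by 0.62 and 0.61 on the log2 scale. Cyc1 and Ndufab1, subunits outside the naming pattern, did not pass in either comparison, and cytochrome c (Cycs) fell in Ctnnb1 tumours (-0.52) but not in combined tumours (-0.01, adjusted p = 0.955).

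Regulators of mitochondrial biogenesis are factors known to act on respiratory genes or mitochondrial DNA. Of 16 listed, 11 rose and 2 fell in Ctnnb1 tumours, and 6 rose and 3 fell in combined tumours. The background is 28.9% and 28.3% rising and 29.6% and 29.5% falling. Polg, the mitochondrial DNA polymerase, had 2387, 2353 and 2542 in Ctnnb1 and 1940, 2044 and 1966 in combined tumours, against 1491, 1482 and 1476 in wild type. Its log2 changes were 0.71 and 0.42 (limma adjusted p = 3.99e-05 and 0.000402). The coactivator Ppargc1a, known as an inducer of respiratory genes, had 289, 394 and 528 in Ctnnb1 and 283, 300 and 256 in combined tumours, against 228, 172 and 202 in wild type. It rose in Ctnnb1 tumours (0.97, adjusted p = 0.00606) and did not pass in combined tumours (0.48, adjusted p = 0.0932), although no tumour library overlapped with wild type. Its relative Pprc1 rose in both (0.62 and 0.33). Esrrg, a nuclear receptor of oxidative tissues that was singled out after its values were seen, had 423, 881 and 593 in Ctnnb1 and 415, 494 and 427 in combined tumours, against 932, 1065 and 924 in wild type. It fell by 0.68 (adjusted p = 0.0342) and 1.13 (adjusted p = 0.00374) on the log2 scale, and the Ctnnb1 call was lost without any single library except Ctnnb1 library 14 and at equal totals (-0.19).

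Other mitochondrial lists were mixed. Their counts stand beside 28.9% of all genes that rose and 29.6% that fell in Ctnnb1 tumours, and 28.3% and 29.5% in combined tumours. Of 19 membrane and import genes, 8 rose and 1 fell in Ctnnb1 and 5 rose and 1 fell in combined tumours, with Hspa9, the chaperone that pulls proteins into the matrix, at 0.60 and 0.41. Of 16 citrate cycle genes, 5 rose and 7 fell in Ctnnb1 and 2 rose and 7 fell in combined tumours. Ogdh, a subunit of the 2-oxoglutarate dehydrogenase complex, fell by 0.66 and 0.45, and fumarase (Fh1) by 0.53 and 0.58, on the log2 scale. At equal totals the median of each of these lists was above 0, as for most genes.

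Androgen deprivation of the inducible tumours changed no member past the test. Of the 63, 0 were called in ADT over mock, where 2 of 23289 genes were (0.00859%, limma), and 4 members had an unadjusted p under 0.05, against 16.2% of all genes. At equal totals 0 members were called, against 0.149% of all genes higher and 0.0675% lower. The members' median log2 change was -0.05. With 3 libraries against 2, a p that misses the threshold does not show that the groups act alike. All ADT libraries lay above all mock libraries for 11 members and below them for 9, against 16.4% and 16.8% of all genes, so 20 members did not overlap, against 33.2%.

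Ndufb4, an accessory subunit of the membrane arm of complex I (chr16:37647170-37654453, GRCm38), had the highest change. It had 2240, 1979 and 2530 in ADT tumours, against 1055 and 1277 in mock tumours, with no overlap. The log2 change was 0.95 (SE 0.17, unadjusted p = 0.00319 and limma adjusted p = 0.136). A related row that the files leave unnamed and the gene table names Ndufb4c had 24, 24 and 20 in ADT against 6 and 6 in mock libraries, so reads may be shared between such copies. Within a library Ndufb4 stood at 87.5%, 98.3% and 116% of Ndufb9 in ADT tumours, against 44.2% and 53.0% in mock tumours, a pair chosen after its values were seen.

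The other members with an unadjusted p under 0.05 were Ndufa13, Ndufa6 and Ndufs6, all accessory subunits of complex I. Ndufa13 had 2405, 2350 and 2927 in ADT against 1951 and 1835 in mock tumours (0.43, adjusted p = 0.275). Ndufa6 had 1647, 1646 and 1701 in ADT against 2148 and 2129 in mock tumours (-0.36, adjusted p = 0.229). Ndufs6 had 834, 880 and 807 in ADT against 1088 and 1052 in mock tumours (-0.35, adjusted p = 0.298). The separations therefore ran both ways within 1 complex.

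Core and accessory subunits of complex I were counted apart. Of the 7 core genes, 4 had all ADT libraries above mock and none below (median 0.13). Of the 28 accessory genes 5 were above and 2 below (median -0.04). Among all genes 16.4% were above and 16.8% below, and the difference between core and accessory genes was not tested. Sdha had 8594, 8972 and 9396 in ADT against 7728 and 7879 in mock tumours (0.20), while the anchor Sdhd had 2715, 2409 and 2266 in ADT against 3092 and 2873 in mock tumours (-0.28), and neither passed the test (adjusted p = 0.420 and 0.396). Sdhb and Sdhc were at 0.05 and 0.01. In complex III, Uqcr10 was highest (0.29) and Uqcrfs1 lowest (-0.29), and in complex IV Cox6c was highest (0.11) and Cox7c lowest (-0.39), with Cox7c at 2381, 1936 and 1744 in ADT against 2662 and 2591 in mock tumours. Cox4i1 had 5692, 5229 and 5074 in ADT against 7066 and 6609 in mock tumours (-0.36, adjusted p = 0.238), without overlap.

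**Figure D5:**
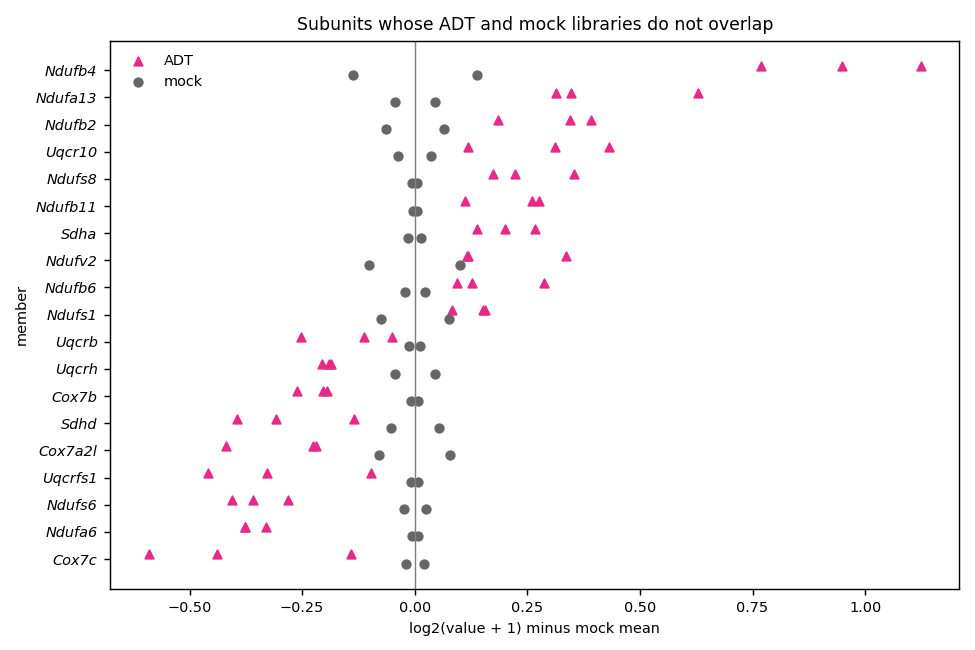
For 19 of the members whose ADT and mock libraries do not overlap, log2(value + 1) minus the mock mean (horizontal axis) in each ADT and mock library, 1 member per line. Ndufb4 lies farthest to the right (log2 change 0.95) and Cox7c farthest to the left (-0.39).

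The 13 subunits encoded in mitochondrial DNA are listed only in the inducible files. None was called in ADT over mock, and the median change was 0.15. All ADT libraries lay above mock for 7 of the 13 and below for 0, against 16.4% and 16.8% of all genes. Their values summed to 1185946, 1063654 and 1239848 in ADT against 1022895 and 1012571 in mock libraries. Cytochrome b (mt-Cytb) had 119945, 105520 and 107837 in ADT against 94208 and 89391 in mock tumours (0.27, adjusted p = 0.415). All 3 ADT sums lay above both mock sums.

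The muscle isoforms varied widely among these libraries too. Cox6a2 had 14, 1 and 249 in ADT against 69 and 156 in mock tumours, and the skeletal muscle markers summed to 2799, 413 and 63845 in ADT against 12911 and 41557 in mock libraries. The order of the 5 libraries was the same for both. It was not quite so for Cox8b (5, 12 and 101 in ADT against 15 and 95 in mock tumours) and Cox7a1 (29, 33 and 126 in ADT against 79 and 124 in mock tumours), which were lower in ADT library 1 than in ADT library 2. The 2 brown fat markers summed to 40, 119 and 19 in ADT against 82 and 35 in mock libraries, and their part was not tested. Ndufa4l2 had 1174, 480 and 898 in ADT against 520 and 572 in mock tumours (0.55, adjusted p = 0.565), while the pericyte markers summed to 10855, 11198 and 9383 in ADT against 30755 and 9925 in mock libraries, so mock library 1 was high in pericyte genes and not in Ndufa4l2. Ppargc1a had 29, 96 and 170 in ADT against 198 and 542 in mock tumours (-2.05, adjusted p = 0.369), and Esrrg had 8, 24 and 48 in ADT against 175 and 205 in mock tumours (-3.10, adjusted p = 0.192), both without overlap and neither past the test. Of the 17 biogenesis regulators tested here, 6 lay below mock without overlap and 3 above (median -0.13), against 16.8% and 16.4% of all genes. Luminal epithelial markers were lower in all ADT libraries for 7 of 8 genes, against 16.8% of all genes. They summed to 44198, 56013 and 46401 in ADT against 89326 and 100922 in mock libraries, and their part in the members' values was not tested.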

How the data were processed

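RNA sequencing of 17 samples was used as deposited. Per the submitters' processing notes, the listed tools include Bowtie2 2.2.6.0, TopHat2 2.1.0 and FastQC 0.11.4, and HTSeq 0.6.0, DESeq2 1.14.1 and R 3.2.3 are also listed, with build GRCm38.p3 (roles not given in the sources used here). The deposited values have the unit score: gene counts divided by size factors, then rounded, by the authors (judged from the values), so no count test was run and depth is unknown. In the genotype files, features without an Entrez number, numbers on several rows and repeated rows were left out. In the inducible files, 1 row was kept per Ensembl number, and 15208 missing symbols were filled from a gene table. Values of log2(value + 1) were tested with limma 3.58.1 (R 4.3.3, trended prior variance) and Benjamini-Hochberg adjustment over all genes, 9 genotype libraries together and 5 inducible libraries apart; a gene needed a value of 1 in 3 of the 9 or 2 of the 5, and SE is the moderated error. The fit was tested on simulated data. Alternatives covered scaling, pseudocount, filter, prior variance, libraries and a replicate block. Members, gene lists and named genes (the extremes of each complex, isoforms and partners, the first genes of each list by p) were chosen with earlier results of these data known. Gene positions are GENCODE M21 and promoters RefSeq GRCm38.p6, matched for 52 of 63 members. A further genotype group, the comparisons that rest on it and the values of 1 member are not reported here. Figures were drawn with matplotlib 3.10.9.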

Additional observations from a re-analysis of the deposited data

How the results depend on the processing

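Alternatives covered scaling, pseudocount, filters on low values, the prior variance, other sets of libraries and leaving out each library. Equal totals turned medians round: in Ctnnb1 over wild type they were 0.19 for all members, 0.30 for core and 0.13 for accessory subunits of complex I, 0.27 for complex II, 0.16 for III and 0.25 for IV, with 27 members higher and 6 lower. In combined over wild type they were 0.12, 0.27, 0.026, 0.24, 0.17 and 0.14 in the same order, with 20 higher and 9 lower. At equal totals the Ctnnb1 changes of named genes that turned positive were 0.071 for Cox4i1, 0.25 for Uqcc3, 0.38 for Cox5a, 0.37 for Cox6b1, 0.30 for Cox6c, 0.19 for Cox7b, 0.13 for Cox7c, 0.17 for Cox8a, 0.052 for Ndufa4, 0.24 for Ndufa6, 0.26 for Ndufs7, 0.35 for Sdha, 0.29 for Sdhd, 0.37 for Uqcrc2, 0.23 for Uqcrfs1 and 0.40 for Uqcrh, and, called on neither scale, 0.27 for Cox6a1, 0.24 for Cox7a2 and 0.25 for Sdhc. In combined tumours they were 0.42 for Cyc1, 0.51 for Cycs, 0.071 for Ogdh, 0.10 for Cox6a1, 0.33 for Cox6b1, 0.13 for Cox6c, 0.14 for Cox7b, 0.020 for Cox8a, 0.48 for Ndufa12, 0.38 for Ndufb4, 0.32 for Sdha, 0.32 for Sdhc, 0.16 for Sdhd, 0.24 for Uqcrc2, 0.16 for Uqcrfs1 and 0.19 for Uqcrh, and, called on neither scale, 0.21 for Cox7a2 and 0.18 for Uqcr10. That scale raises most genes of the tumour libraries by its construction, since the wild-type totals are higher. Among all genes it gave 7797 higher and 2086 lower calls in Ctnnb1, against 4017 and 4114 as deposited, and 7970 and 1758 in combined tumours, against 3936 and 4107. Members called higher in Ctnnb1 tumours were 2 at equal totals without the 100 highest genes and 0 with 12 libraries in the fit, and the cause was not tested. Leaving out 1 library gave 23 to 38 lower and 0 to 2 higher in Ctnnb1, and 38 to 45 lower and 1 to 2 higher in combined tumours. In ADT over mock 0 members were called under every alternative. With ADT and mock numbers as a replicate block 0 were called and the median was -0.01, the value without ADT library 3, and with 2 pairs the numbers are not shown to pair the samples (correlations of 0.223 and 0.117). Without 1 mock library the lone one is assumed to vary like the ADT libraries. Depth is unknown, so no counting interval could be given.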

Other observations

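Changes were set beside the size of the subunits. Across the 63 members, Spearman's rho between coding length and log2 change was 0.38 in Ctnnb1 over wild type, 0.25 in combined over wild type and 0.32 in ADT over mock, against 0.09, 0.09 and 0.02 across all genes with a length. Over all genes, the 655 of up to 411 bases had a median change of -0.21 in Ctnnb1 and -0.28 in combined tumours, and the 8938 longer ones up to the length of the longest member -0.04 in both, so shorter genes had lower changes among all genes too. Of the 57 members other than isoforms and relatives, the 29 with a coding length up to 411 bases had a median change of -0.33 in Ctnnb1 and -0.44 in combined tumours, and the 28 longer ones -0.22 and -0.35. These are descriptions across genes, which are not independent replicates, and the comparisons with wild type share libraries.

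Among RefSeq promoters (GRCm38.p6, 250 bases before to 50 after the start, both strands), 52 members had an entry. The NRF1 string GCGCATGC stood in 7 of them (13.5%), against 3.05% of 27025 genes, the ETS string CCGGAAG in 11 (21.2%, against 9.93%), and the YY1 string AAGATGGC in 7 (13.5%, against 3.19%). The ERR string TCAAGGTCA stood in 1, that of Sdhd (1.92%, against 0.466%). The E-box CAGCTG stood in 5 (9.62%, against 18.3%) and the TATA box TATAAA in 5 (9.62%, against 15.7%). No difference in these shares was tested.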
